A study of Mus musculus with 32 samples.

Results

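The genes described here are cadherins and the cell adhesion molecules that join the 2 sides of a synapse or an axon to its partners. They were taken by name from a deposited table of 5582 genes as every symbol beginning with Cdh and a digit, Pcdh, Nrxn, Nlgn, Lrrtm, Lrfn, Flrt, Slitrk, Cntn and a digit, Cntnap, Cadm or Lrrc4. The rule found 43 genes: 10 cadherins, 10 clustered protocadherins, 1 other protocadherin (Pcdh7), 1 neurexin (Nrxn3), 1 neuroligin (Nlgn2), 3 Lrrtm, 2 Lrfn, 2 Lrrc4-family, 2 Slitrk, 2 Flrt, 3 contactin, 2 Cntnap and 1 Cadm gene. Another 3 matched by spelling only, namely Lrrc40, Lrrc42 and Lrrc49, which encode leucine-rich repeat proteins of other families, so that 40 genes are adhesion molecules proper. All 43 passed the filter on low counts that left 5371 of the 5582 genes to test. The table holds only a part of each family. By the same names RefSeq has 57 protein-coding clustered protocadherins and 23 cadherins. Counts below cover the listed genes only.

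Bulk RNA sequencing was carried out on mice of a C57BL/6 background whose own Apoe gene was replaced on both alleles by human APOE3 or human APOE4. All the animals therefore carry a human allele, and none with mouse Apoe serves as a reference. TBI animals received a craniotomy 4.5 mm wide over the left parietal cortex and 1 controlled cortical impact, a 3 mm tip driven 1 mm deep, and sham animals received the craniotomy and anaesthesia alone. At day 14 the cortical and hippocampal tissue around the injury was pooled within each animal, without subcortical tissue. The comparisons rest on 30 animals: among APOE3 mice 8 with TBI and 7 shams, and among APOE4 mice also 8 and 7. Titles also carry a letter, M in 15 and F in 15 of these animals, which the labels do not spell out and which went with the series of animal numbers, so that the letter and the series cannot be told apart. A further letter, Y, stands in all of the titles and was not interpreted here.

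Cadherins bind their own kind across the gap between cells through calcium-dependent extracellular repeats, and classical and type II cadherins are tied to actin inside the cell by catenins. Protocadherins of the alpha, beta and gamma clusters are expressed in different combinations from cell to cell and give neurons a surface identity by which branches of the same cell recognise each other. At synapses, presynaptic neurexins and receptor phosphatases bind postsynaptic neuroligins, Lrrtm, Lrfn and Slitrk proteins, while contactins and Cntnap proteins organise axonal membrane domains such as the edges of nodes of Ranvier.

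The rows of the table were selected by the authors on TBI against sham, since no p-value in the authors' deposited table exceeds 0.0502. Injury differences below are therefore descriptions of how far and in which animals each gene moved, and the percentage of all listed genes called is given beside the counts. Genotype, interaction and letter comparisons were not used for that selection. Column totals over the listed genes fell into 16 shallow libraries (2262242 to 3595246 counts) and 16 deep ones (4648345 to 8606717 counts), with both kinds in each group. Levels are counts per fixed size of those totals after trimmed-mean (TMM) scaling, in the usual unit CPM. Each of the 43 genes had at least 7 counts in each of the 30 libraries, with a median of 363. Another 2 libraries carry a title and a description that name different groups and were left out. The 12 tested pan-neuronal markers summed to 20516 to 22691 CPM in shams and 14442 to 19656 CPM after TBI. Neocortical markers (7 genes, 2168 to 2794 CPM in shams) and hippocampal markers (5 genes, 429 to 830.3 CPM in shams) were present in all of the libraries, as the tissue label states.

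Promoter windows from RefSeq (build GRCm38.p6, 250 bases before to 50 after the start of transcription) were held for 26 of the 43 genes. They are shown for Cdh6, the gene with the largest fall after injury, for Lrrtm3, the gene with the smallest p in the comparison of genotypes, and for Cadm2, the gene with the highest mean CPM of the set. Capitals mark the motifs searched on both strands: the cyclic AMP response element TGACGTCA and its core TGACG, the AP-1 site TGANTCA, the GC box GGGCGG, the TATA box TATAAA, the CCAAT box CCAAT and the E-box CACGTG.
Cdh6 (chr15:13173626-13173925, minus strand): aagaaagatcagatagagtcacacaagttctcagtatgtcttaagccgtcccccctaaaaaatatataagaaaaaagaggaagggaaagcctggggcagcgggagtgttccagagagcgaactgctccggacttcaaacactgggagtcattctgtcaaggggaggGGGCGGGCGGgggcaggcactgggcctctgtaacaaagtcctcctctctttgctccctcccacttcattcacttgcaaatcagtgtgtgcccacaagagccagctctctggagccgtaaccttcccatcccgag
Lrrtm3 (chr10:64090206-64090505, minus strand): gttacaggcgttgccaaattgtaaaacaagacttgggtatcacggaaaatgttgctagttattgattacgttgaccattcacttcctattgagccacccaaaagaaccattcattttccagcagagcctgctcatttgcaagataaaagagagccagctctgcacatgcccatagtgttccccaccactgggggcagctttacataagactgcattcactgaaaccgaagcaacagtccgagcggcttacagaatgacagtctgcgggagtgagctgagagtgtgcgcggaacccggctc
Cadm2 (chr16:67620859-67621158, minus strand): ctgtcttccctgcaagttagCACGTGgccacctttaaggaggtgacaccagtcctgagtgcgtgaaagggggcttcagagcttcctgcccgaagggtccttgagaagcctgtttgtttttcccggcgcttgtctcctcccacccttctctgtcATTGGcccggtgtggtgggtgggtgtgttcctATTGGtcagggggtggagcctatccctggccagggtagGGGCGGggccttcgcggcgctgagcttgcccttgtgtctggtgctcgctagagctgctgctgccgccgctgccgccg
The Cdh6 window holds GC boxes that overlap each other, the Lrrtm3 window holds none of these letters, and the Cadm2 window holds a GC box, CCAAT boxes on the reverse of the printed strand, and an E-box. Over the whole set, a GC box was found for 10 of the 26 genes with a window, against 67.5% of the table's genes and 38.2% of all genes with a RefSeq window. A CCAAT box was found for 5 of the 26, against 41.1% of the table's genes. The core TGACG was found for 5 of 26 (31.5% of the table's genes) and the AP-1 site for 3 of 26 (7.47%). TATA boxes and E-boxes were found for 2 of 26 each, against 10.3% and 10.5% of the table's genes. The full element TGACGTCA, which contains the core, was found for 0 of the 26 and for 3.18% of the table's genes.

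Most of these adhesion genes were lower after injury and a small group was higher. Of the 43 genes, 35 fell and 7 rose at an adjusted p under 0.05 (edgeR quasi-likelihood test, Benjamini-Hochberg over all 5371 genes tested), and 1, Pcdhga6, was not called. Over all genes tested, 45.9% were called lower and 48.1% higher, 93.9% in all. The median log2 difference of the 43 genes was -0.23, against 0.10 over all genes tested. The changes were small: 0 of the 43 moved by 2-fold or more in either direction, and the largest fall, that of Cdh6, was by 31.3%. No gene had its whole TBI group outside the sham range, which 0.596% of all genes tested reached below and 5.59% above. In 21 of the 43 genes at least 8 of the 16 TBI animals lay below the lowest sham. The share of all genes tested that did so was not counted. Nor was it counted for the group overlaps and animals outside the sham range given gene by gene below, which are descriptions. Scaling to total counts instead of TMM gave 24 lower and 8 higher, with 35 genes below 0 under each and no change of sign. Among all genes that scaling put 70.3% of the calls on the higher side, against 51.2% with TMM.

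**Figure D1:**
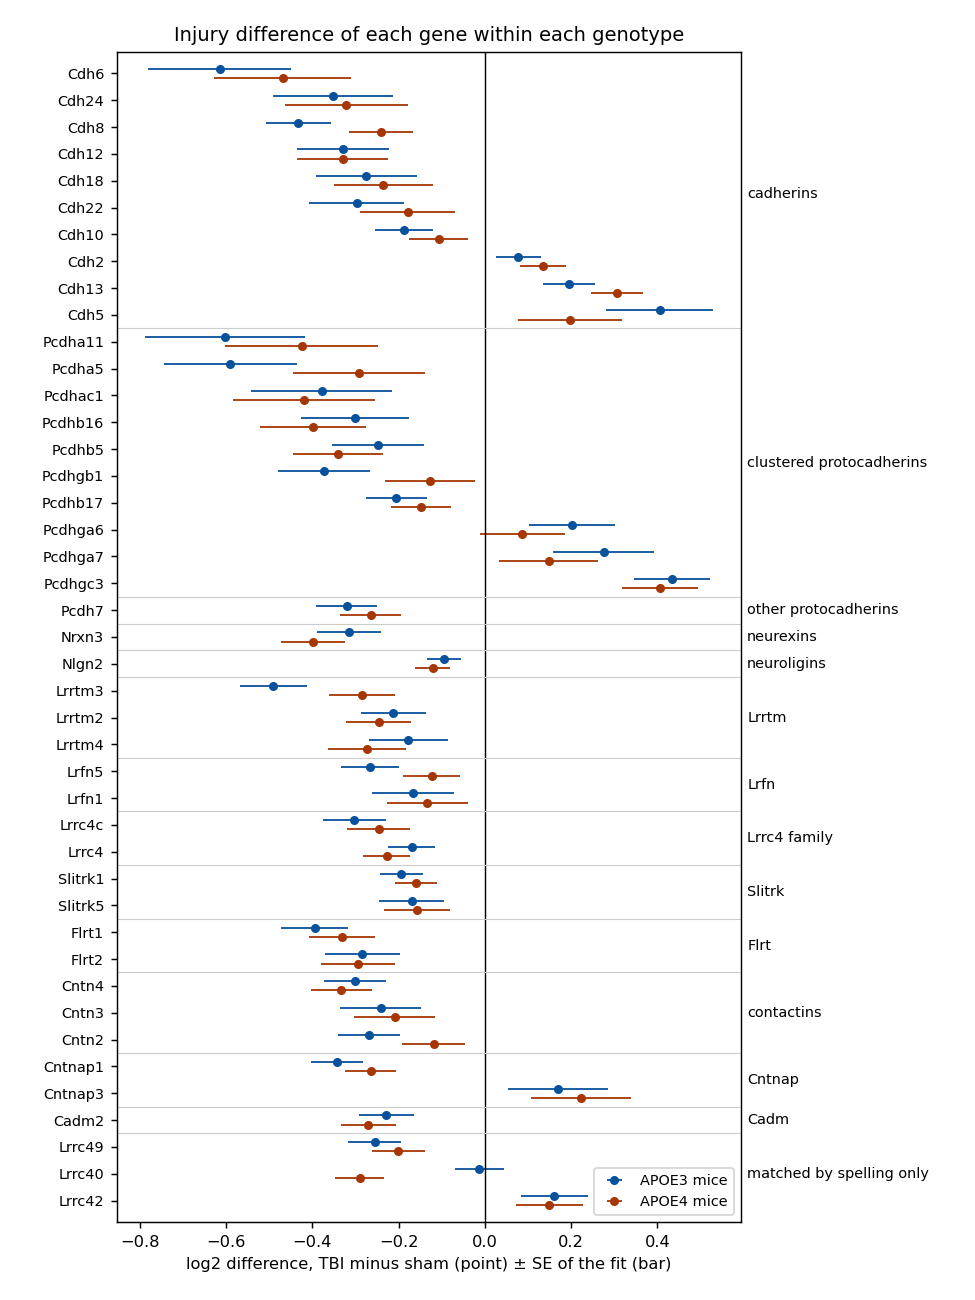
Log2 difference of TBI minus sham within APOE3 mice (blue) and APOE4 mice (brown) for each of the 43 genes, grouped by family; points are estimates of the edgeR fit and bars their SE. Points of both genotypes lie on the same side of 0 for all 43 genes, 35 of them below 0. Selection of the rows on TBI against sham favours such agreement.

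In this bulk tissue, fewer cells of a type and less RNA per cell cannot be told apart, and cell type markers moved with the injury as well. The fall of the adhesion genes stands beside a fall of all 12 pan-neuronal markers tested (Snap25, -0.40; Nefm, -0.61; Rbfox3, -0.30 on the log2 scale) and of all 6 inhibitory markers. Excitatory neuron markers fell in 9 of 10. Of the pooled regions, markers of the hippocampus fell in 4 of 5, with summed levels of 264 to 735 CPM after TBI, and markers of the neocortex fell in 6 of 7, with 1690 to 2428 CPM. Among the neocortical ones Rspo1 (-1.19) and Lamp5 (-0.95) fell most and Otof (0.35) rose. The ependymal marker Foxj1 (1.14), the 1 tested of its list, rose. Microglial and macrophage markers rose in 14 of 14, from 877 to 1182 CPM summed in shams to 1691 to 3732 CPM after TBI. Astrocyte markers rose in 12 of 12, fibroblast and meningeal markers in 7 of 7, endothelial markers in 3 of 3 and pericyte markers in 2 of 2. Among 3 tested oligodendrocyte markers 1 rose and 2 fell, and none of the markers tested was at 0 in any library. These counts stand in a table of which 93.9% of all genes tested were called. Most of the endothelial, pericyte and oligodendrocyte markers listed were not among the genes tested, and 0 oligodendrocyte precursor markers were. The direction of the untested markers is not known here. The part of these shifts in the adhesion genes was not tested. Per animal, the median log2 level of the 43 genes relative to the sham mean ran from -0.07 to 0.08 in shams and from -0.39 to 0.02 after TBI. The same median over the pan-neuronal markers ran from -0.06 to 0.10 in shams and from -0.52 to -0.05 after TBI. In the plot of medians per animal, 2 APOE4 TBI animals lay inside the sham range for the adhesion genes while their neuronal markers lay below the shams.

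**Figure D2:**
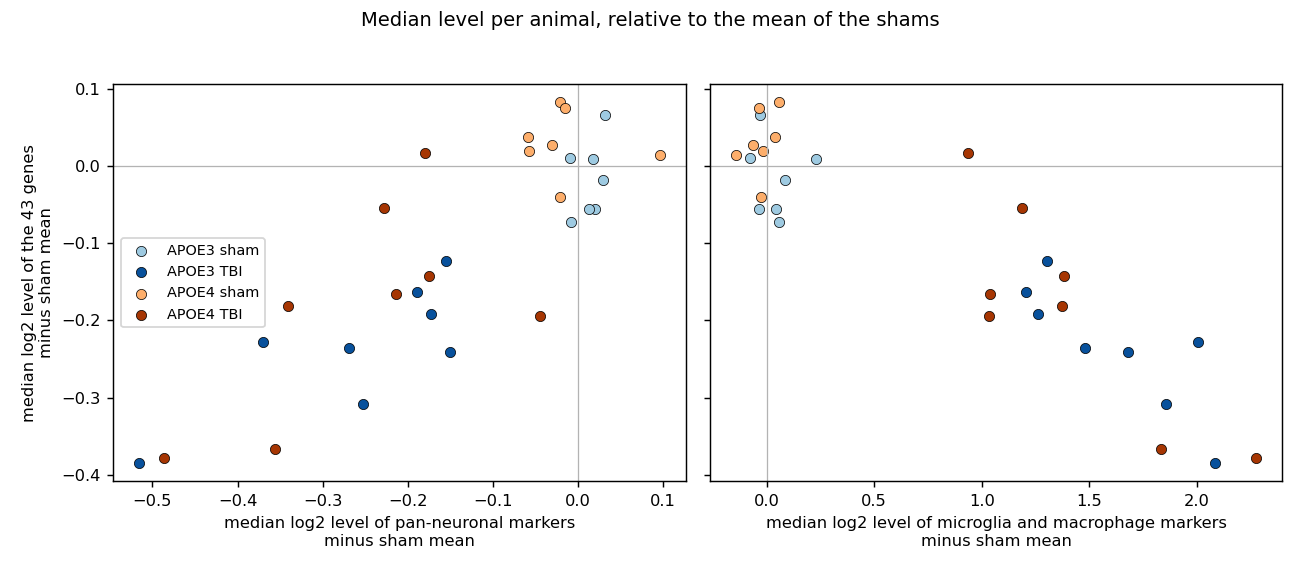
Median log2 level of the 43 genes in each animal, relative to the mean of the 14 shams, against the same median over 12 pan-neuronal markers (left) and 14 microglial and macrophage markers (right); each point is 1 animal. Shams cluster around 0 on all axes, and the TBI animals with the lowest adhesion medians (down to -0.39) also have low neuronal and high microglial medians.

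On the presynaptic side, Nrxn3, a neurexin that serves as the presynaptic hub for several of the ligands below, fell in both genotypes. Nrxn3 ran from 415 to 525 CPM (median 473) in APOE3 shams and from 284 to 438 CPM (median 387) in APOE3 TBI animals. In APOE4 mice Nrxn3 spanned 411 to 503 CPM (median 491) in shams and 320.4 to 399 CPM (median 368) after TBI. The APOE4 groups did not overlap and the APOE3 groups did, and 13 of the 16 TBI animals lay below the lowest sham. The means were 477 ± 37.5 CPM (SD, n = 14) and 373 ± 42.5 CPM (SD, n = 16) in sham and TBI, a log2 difference of -0.36 ± 0.05 (SE) with an adjusted p of 8.45e-07. It was the only neurexin in the table, and its counts do not separate the long and short forms made from its alternative promoters.

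Among the postsynaptic partners of neurexins, Nlgn2, the neuroligin of inhibitory synapses, had the highest level per kilobase of exon of all 43 genes (98.3 CPM per kb) and the smallest fall. APOE3 shams gave Nlgn2 at 548 to 653 CPM (median 578) and APOE3 TBI animals at 519 to 594 CPM (median 549). APOE4 shams gave Nlgn2 at 541 to 646 CPM (median 597) and APOE4 TBI animals at 489.5 to 613 CPM (median 539.8). The sham and TBI ranges overlapped in both genotypes. Sham and TBI means were 592 ± 36.2 CPM (SD, n = 14) and 549 ± 34.6 CPM (SD, n = 16), a log2 difference of -0.11 ± 0.03 (SE) with an adjusted p of 0.00125.

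All 3 Lrrtm genes in the table, which encode leucine-rich repeat proteins that promote excitatory synapses, fell. Lrrtm3 fell the most of them, by 23.5%. For Lrrtm3, APOE3 shams spanned 110.2 to 159 CPM (median 128) and APOE3 TBI animals 75.8 to 108 CPM (median 94.5). Among APOE4 animals Lrrtm3 lay at 114 to 165 CPM (median 143) in shams and at 86.7 to 152 CPM (median 114) in the TBI group. No APOE3 TBI animal reached the lowest APOE3 sham, whereas the APOE4 groups overlapped. Means of 135 ± 15.8 CPM (SD, n = 14) and 104 ± 19.0 CPM (SD, n = 16) in sham and TBI gave a log2 difference of -0.39 ± 0.05 (SE) and an adjusted p of 4.36e-07. Lrrtm2, a neurexin ligand at glutamatergic synapses, had the highest level per kilobase of the 3 (37.0 CPM per kb). Lrrtm2 ran from 222 to 255 CPM (median 249) in APOE3 shams and from 149.7 to 262 CPM (median 213) in APOE3 TBI animals. In APOE4 mice Lrrtm2 spanned 213 to 264 CPM (median 239) in shams and 175 to 256 CPM (median 189) after TBI. Sham and TBI ranges overlapped in both genotypes, and the log2 difference was -0.23 ± 0.05 (SE) between means of 242 ± 14.7 CPM (SD, n = 14) and 207 ± 29.1 CPM (SD, n = 16). Exons of Lrrtm2 overlap exons of Ctnna1 on the other strand, a catenin gene that rose by 0.23 on the log2 scale, and the strand setting of the counts is not given in the sources used here, so reads of this pair cannot be told apart. Exons of 12 of the 43 genes overlap a gene on the other strand, with the same limit. Lrrtm4, which binds presynaptic heparan sulfate proteoglycans, fell by 0.22 on the log2 scale, with -0.11 in the shallow and -0.31 in the deep libraries.

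The ligands of receptor phosphatases and netrin-G proteins moved the same way. Lrrc4 (NGL-2), a postsynaptic ligand of netrin-G2, had the higher level per kilobase of the Lrrc4 pair. APOE3 shams gave Lrrc4 at 259.6 to 289 CPM (median 269) and APOE3 TBI animals at 204 to 271 CPM (median 247). APOE4 shams gave Lrrc4 at 245 to 292 CPM (median 285) and APOE4 TBI animals at 196 to 276 CPM (median 239.9). The ranges overlapped in both genotypes, with 8 of 16 TBI animals below every sham. The means were 275 ± 14.4 CPM (SD, n = 14) and 240.3 ± 23.7 CPM (SD, n = 16), a log2 difference of -0.20 ± 0.04 (SE). Its relative Lrrc4c (NGL-1), the ligand of netrin-G1, fell by 0.27 on the log2 scale. Slitrk1, which binds presynaptic receptor phosphatases, stood at 201 to 240.3 CPM (median 222) in shams and 171 to 229 CPM (median 195) after TBI. The ranges overlapped, although 12 of the 16 TBI animals lay below the lowest sham, and the log2 difference was -0.18 ± 0.03 (SE) between means of 222 ± 11.0 CPM (SD, n = 14) and 196 ± 16.1 CPM (SD, n = 16). Slitrk5, of the same family, had a log2 difference of -0.16.

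Lrfn1 (SALM2), a postsynaptic protein that binds the scaffold PSD-95, had the higher level per kilobase of the Lrfn pair. For Lrfn1, APOE3 shams spanned 73.4 to 102 CPM (median 84.9) and APOE3 TBI animals 64.3 to 93.6 CPM (median 75.8). Among APOE4 animals Lrfn1 lay at 73.1 to 101 CPM (median 93.8) in shams and at 62.0 to 125 CPM (median 73.0) in the TBI group. The ranges overlapped widely, and 1 APOE4 TBI animal was the highest of all animals. The log2 difference of -0.15 ± 0.07 (SE), between means of 87.1 ± 9.76 CPM (SD, n = 14) and 79.0 ± 15.8 CPM (SD, n = 16), passed the threshold with an adjusted p of 0.0363 and lost it without any 1 of 8 libraries, with adjusted p up to 0.0943. These were APOE3 TBI replicates 3 or 7, APOE3 sham replicate 6, APOE4 TBI replicates 4, 6 or 8, APOE4 sham replicates 2 or 7. Lrfn5 (SALM5), a ligand of receptor phosphatases, fell by 0.20 on the log2 scale.

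Both Flrt genes in the table fell. Flrt proteins bind latrophilins at synapses and Unc5 receptors during axon and cell guidance. Flrt1 ran from 58.6 to 105 CPM (median 69.2) in APOE3 shams and from 52.0 to 73.7 CPM (median 57.9) in APOE3 TBI animals. In APOE4 mice Flrt1 spanned 79.8 to 98.2 CPM (median 90.6) in shams and 52.8 to 86.0 CPM (median 72.1) after TBI. Injured and sham animals overlapped in both genotypes, and 7 of 16 TBI animals lay below every sham. For Flrt1 the means were 84.2 ± 14.4 CPM (SD, n = 14) and 65.4 ± 11.99 CPM (SD, n = 16), a log2 difference of -0.36 ± 0.05 (SE) with an adjusted p of 1.16e-06. Flrt2 had the higher level per kilobase. APOE3 shams gave Flrt2 at 146 to 205 CPM (median 168) and APOE3 TBI animals at 124 to 165 CPM (median 138). APOE4 shams gave Flrt2 at 151 to 202 CPM (median 190.0) and APOE4 TBI animals at 127 to 204 CPM (median 135). The APOE4 TBI group lay mostly below its shams with 1 animal near the top, and the log2 difference was -0.29 ± 0.06 (SE) between means of 177 ± 19.9 CPM (SD, n = 14) and 145 ± 22.1 CPM (SD, n = 16).

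Cadm2 (SynCAM2), an immunoglobulin-type adhesion molecule of synapses and axons, had the highest CPM of the 43 genes. For Cadm2, APOE3 shams spanned 583 to 708 CPM (median 619) and APOE3 TBI animals 504 to 649 CPM (median 535). Among APOE4 animals Cadm2 lay at 658 to 752 CPM (median 682) in shams and at 495 to 769.9 CPM (median 527) in the TBI group. In the APOE4 TBI group 1 animal exceeded every sham, while 13 of the 16 TBI animals lay below the lowest sham. Sham and TBI means were 660.5 ± 47.4 CPM (SD, n = 14) and 556 ± 75.9 CPM (SD, n = 16), a log2 difference of -0.25 ± 0.04 (SE) with an adjusted p of 1.71e-05.

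Among axonal molecules, Cntnap1 (Caspr), the axonal protein of the paranodal junction with myelin, separated sham and TBI animals most fully of the 43 genes. Cntnap1 ran from 606 to 716 CPM (median 632) in APOE3 shams and from 457 to 588 CPM (median 496) in APOE3 TBI animals. In APOE4 mice Cntnap1 spanned 590.1 to 682 CPM (median 646) in shams and 458 to 602 CPM (median 528) after TBI. All but 1 of the injured animals were below the lowest sham. The means were 641 ± 35.3 CPM (SD, n = 14) and 519 ± 49.3 CPM (SD, n = 16) in sham and TBI, a fall by 19.0% and a log2 difference of -0.30 ± 0.04 (SE) with an adjusted p of 2.85e-07. Its exons overlap those of Plekhh3 on the other strand, a gene not analysed here. Cntn2 (TAG-1), a contactin of the juxtaparanodes, had the highest level per kilobase of the 3 contactins. APOE3 shams gave Cntn2 at 267 to 355 CPM (median 318) and APOE3 TBI animals at 253 to 276 CPM (median 262). APOE4 shams gave Cntn2 at 283 to 369.8 CPM (median 339) and APOE4 TBI animals at 226 to 389 CPM (median 293). Ranges overlapped more widely in APOE4 than in APOE3 mice, and the log2 difference was -0.19 ± 0.05 (SE) between means of 322 ± 28.6 CPM (SD, n = 14) and 283 ± 38.1 CPM (SD, n = 16). Cntn4 (BIG-2) fell by 0.32 and Cntn3 (BIG-1) by 0.22 on the log2 scale. Cntnap3, a less studied member of the Caspr family, went the other way. For Cntnap3, APOE3 shams spanned 21.4 to 36.5 CPM (median 28.7) and APOE3 TBI animals 24.8 to 36.8 CPM (median 30.7). Among APOE4 animals Cntnap3 lay at 21.1 to 35.5 CPM (median 24.7) in shams and at 22.2 to 44.9 CPM (median 28.2) in the TBI group. All ranges overlapped, and 3 of 16 injured animals were above the top sham. The log2 difference of 0.20 ± 0.08 (SE), between means of 27.0 ± 4.91 CPM (SD, n = 14) and 30.7 ± 6.11 CPM (SD, n = 16), had an adjusted p of 0.0265, which rose above 0.05 without any 1 of 6 libraries (highest 0.0943). Those libraries were APOE3 TBI replicates 4, 6 or 8, APOE3 sham replicate 3, APOE4 TBI replicate 3, APOE4 sham replicate 3.

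**Figure D3:**
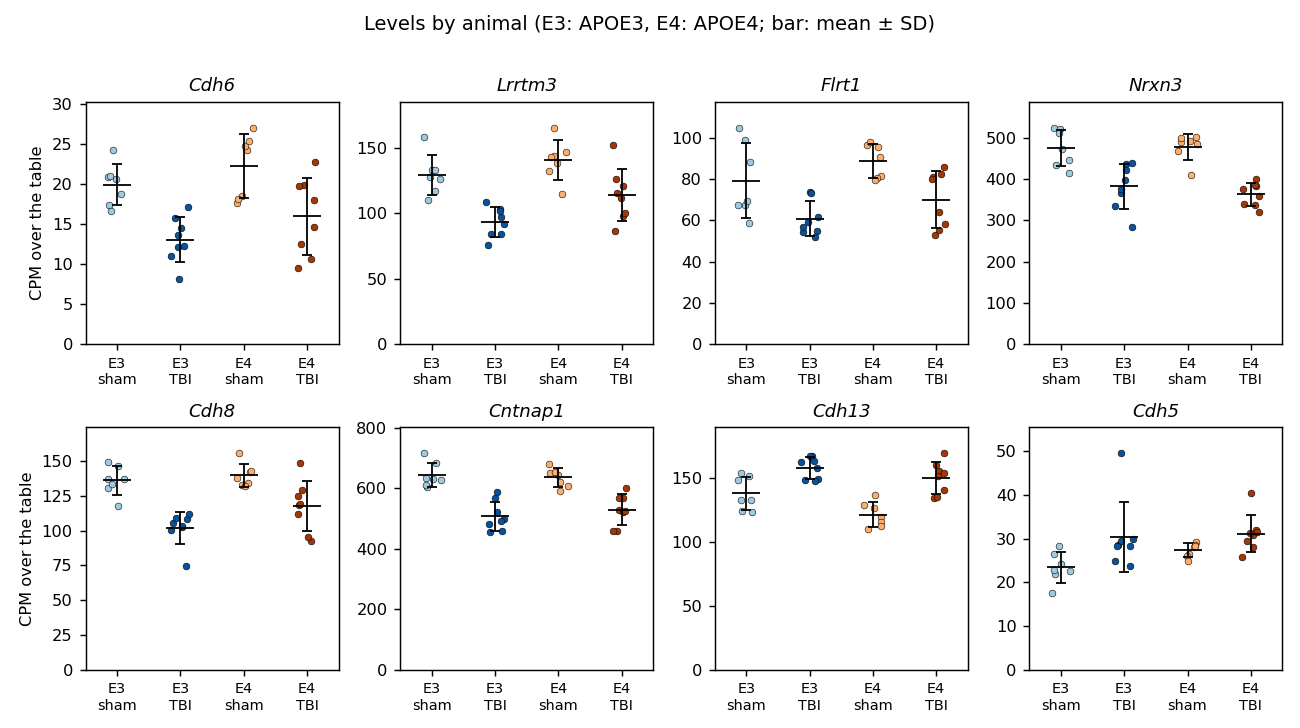
CPM in each animal for 8 of the genes, by genotype and injury; points are animals, the horizontal mark is the group mean and the bars ± 1 SD (n = 7 for each sham and 8 for each TBI group). The 6 genes Cdh6, Lrrtm3, Flrt1, Nrxn3, Cdh8 and Cntnap1 have lower means after TBI in both genotypes, and Cdh13 and Cdh5 have higher ones.

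Of the 10 cadherins 7 fell and 3 rose. The 7 neuronal type II cadherins of the table (Cdh6, Cdh8, Cdh10, Cdh12, Cdh18, Cdh22 and Cdh24), which in the forebrain mark subsets of neurons and their targets, fell, and Cdh2, Cdh5 and Cdh13 rose. Cdh6 had the largest fall of all 43 genes. Cdh6 ran from 16.6 to 24.2 CPM (median 20.6) in APOE3 shams and from 8.07 to 17.1 CPM (median 12.9) in APOE3 TBI animals. In APOE4 mice Cdh6 spanned 17.5 to 27.0 CPM (median 24.2) in shams and 9.43 to 22.8 CPM (median 16.3) after TBI. The APOE3 groups hardly overlapped, the APOE4 groups did, and 11 of 16 TBI animals lay below every sham. Means of 21.0 ± 3.45 CPM (SD, n = 14) and 14.5 ± 4.11 CPM (SD, n = 16) in sham and TBI gave a log2 difference of -0.54 ± 0.11 (SE) with an adjusted p of 0.000136, and of -0.54 in the shallow and -0.55 in the deep libraries. Cdh8 followed the same pattern at a higher level. APOE3 shams gave Cdh8 at 118 to 149 CPM (median 137) and APOE3 TBI animals at 74.5 to 112 CPM (median 104). APOE4 shams gave Cdh8 at 132 to 155 CPM (median 138) and APOE4 TBI animals at 92.8 to 149 CPM (median 119). No APOE3 TBI animal reached the lowest APOE3 sham, and the APOE4 ranges overlapped. The means were 138 ± 9.27 CPM (SD, n = 14) and 109.7 ± 16.7 CPM (SD, n = 16), a log2 difference of -0.34 ± 0.05 (SE) with an adjusted p of 2.04e-06. Cdh24 was low in all groups. For Cdh24, APOE3 shams spanned 12.1 to 21.9 CPM (median 15.9) and APOE3 TBI animals 9.27 to 20.6 CPM (median 11.8). Among APOE4 animals Cdh24 lay at 10.4 to 16.8 CPM (median 14.04) in shams and at 7.64 to 18.1 CPM (median 11.2) in the TBI group. Its ranges overlapped throughout, and the log2 difference was -0.34 ± 0.10 (SE) between means of 15.3 ± 3.17 CPM (SD, n = 14) and 12 ± 3.41 CPM (SD, n = 16). The other neuronal type II cadherins had log2 differences of -0.33 (Cdh12), -0.25 (Cdh18), -0.24 (Cdh22) and -0.15 (Cdh10).

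Cdh5 (VE-cadherin), the cadherin of endothelial junctions, rose. Cdh5 ran from 17.5 to 28.3 CPM (median 22.9) in APOE3 shams and from 23.6 to 49.5 CPM (median 28.5) in APOE3 TBI animals. In APOE4 mice Cdh5 spanned 24.9 to 29.2 CPM (median 28.0) in shams and 25.7 to 40.5 CPM (median 31.1) after TBI. The TBI groups reached above their shams while their lower ends overlapped, and 9 of 16 injured animals were above the top sham. The means were 25.4 ± 3.30 CPM (SD, n = 14) and 30.7 ± 6.27 CPM (SD, n = 16), a log2 difference of 0.30 ± 0.09 (SE) with an adjusted p of 0.00244. The difference was 0.05 in the shallow and 0.46 in the deep libraries, and the gap between the classes was not tested. The endothelial markers Cldn5, Vwf and Slco1a4 rose by 0.32, 0.30 and 0.25 on the log2 scale in the same animals. They were the 3 tested of a longer list. Cdh13 (T-cadherin), a cadherin held in the membrane by a lipid anchor and found on vessels and neurons, also rose. APOE3 shams gave Cdh13 at 123 to 154 CPM (median 133) and APOE3 TBI animals at 147 to 167 CPM (median 160.0). APOE4 shams gave Cdh13 at 109.9 to 136 CPM (median 119) and APOE4 TBI animals at 134 to 169 CPM (median 153). The lower injured animals overlapped the upper part of the sham range, and 9 of 16 were above every sham. The means were 129.6 ± 13.99 CPM (SD, n = 14) and 154 ± 11.0 CPM (SD, n = 16), a log2 difference of 0.25 ± 0.04 (SE) with an adjusted p of 6.62e-06. Cdh2 (N-cadherin), the classical cadherin of neurons and astrocytes, had the highest level per kilobase of the 10 cadherins and the smallest change. For Cdh2, APOE3 shams spanned 212 to 264 CPM (median 244) and APOE3 TBI animals 233 to 282 CPM (median 258). Among APOE4 animals Cdh2 lay at 204 to 254 CPM (median 227) in shams and at 229 to 269.5 CPM (median 254) in the TBI group. The ranges overlapped in both genotypes. The log2 difference of 0.11 ± 0.04 (SE), between means of 236 ± 18.8 CPM (SD, n = 14) and 254 ± 16.2 CPM (SD, n = 16), had an adjusted p of 0.0101, which exceeded 0.05 without APOE3 TBI replicate 6, without APOE4 TBI replicate 3 or without APOE4 TBI replicate 7 (highest 0.0965).

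The clustered protocadherins moved in both directions. The 3 alpha genes in the table (Pcdha5, Pcdha11 and Pcdhac1), the 3 beta genes in it (Pcdhb5, Pcdhb16 and Pcdhb17) and Pcdhgb1 fell, while Pcdhga7 and Pcdhgc3 rose. The table holds 10 of 57 protein-coding clustered protocadherins, so these directions do not describe whole clusters. Genes of the alpha cluster share their last exons with one another, as do those of the gamma cluster, and beta genes are close copies, so the split of reads among them depends on a counting step not given in the sources used here. Alpha genes had the lowest levels of the set, from 0.960 CPM per kb for Pcdha11 to 1.83 CPM per kb for Pcdha5, with means of 34.6 to 45.8 counts per library.

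Pcdha11 ran from 6.45 to 10.1 CPM (median 7.75) in APOE3 shams and from 2.60 to 8.78 CPM (median 5.47) in APOE3 TBI animals. In APOE4 mice Pcdha11 spanned 7.42 to 12.6 CPM (median 9.15) in shams and 4.85 to 10.5 CPM (median 6.45) after TBI. The ranges overlapped in both genotypes, with most injured animals at or below the sham minimum. The means were 8.63 ± 1.65 CPM (SD, n = 14) and 6.01 ± 1.95 CPM (SD, n = 16), a log2 difference of -0.51 ± 0.13 (SE) with an adjusted p of 0.000723. APOE3 shams gave Pcdha5 at 7.89 to 14 CPM (median 11.6) and APOE3 TBI animals at 5.46 to 10.1 CPM (median 7.61). APOE4 shams gave Pcdha5 at 7.94 to 13.6 CPM (median 11.2) and APOE4 TBI animals at 5.90 to 11.96 CPM (median 8.31). Overlap was again seen in both genotypes. For Pcdha5 the means were 11.1 ± 2.05 CPM (SD, n = 14) and 8.15 ± 1.91 CPM (SD, n = 16), a log2 difference of -0.44 ± 0.11 (SE). For Pcdhac1, APOE3 shams spanned 8.30 to 12.8 CPM (median 9.56) and APOE3 TBI animals 4.10 to 13.4 CPM (median 8.12). Among APOE4 animals Pcdhac1 lay at 8.14 to 11.6 CPM (median 9.57) in shams and at 5.89 to 8.78 CPM (median 7.25) in the TBI group. In APOE3 mice 1 injured animal was above every sham, and the spread was wide. The log2 difference of Pcdhac1 was -0.40 ± 0.12 (SE) between means of 10.1 ± 1.50 CPM (SD, n = 14) and 7.63 ± 2.19 CPM (SD, n = 16). Pcdhb16 ran from 19.5 to 33.2 CPM (median 23.0) in APOE3 shams and from 16.1 to 25.6 CPM (median 19.1) in APOE3 TBI animals. In APOE4 mice Pcdhb16 spanned 19.6 to 34.6 CPM (median 27.4) in shams and 16.3 to 23.4 CPM (median 20.6) after TBI. The upper part of the sham range was empty of injured animals in APOE4 mice. The log2 difference of Pcdhb16 was -0.35 ± 0.09 (SE) between means of 25.6 ± 5.09 CPM (SD, n = 14) and 20.2 ± 2.86 CPM (SD, n = 16). The remaining genes that fell, Pcdhb5, Pcdhgb1 and Pcdhb17, had log2 differences of -0.29, -0.25 and -0.18.

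Pcdhgc3, a C-type gamma gene, a type expressed more broadly than the other clustered genes, had the largest rise of the 43 genes and the highest level per kilobase of the clustered genes. APOE3 shams gave Pcdhgc3 at 141 to 169.9 CPM (median 159.6) and APOE3 TBI animals at 162 to 283 CPM (median 206). APOE4 shams gave Pcdhgc3 at 112 to 161 CPM (median 159.6) and APOE4 TBI animals at 152 to 267 CPM (median 193). Injured animals were spread upwards from the top of the sham range, and 13 of 16 exceeded every sham. The means were 153 ± 15.1 CPM (SD, n = 14) and 207 ± 38.4 CPM (SD, n = 16), a log2 difference of 0.42 ± 0.06 (SE) with an adjusted p of 1.00e-06, and of 0.45 in the shallow and 0.41 in the deep libraries. For Pcdhga7, APOE3 shams spanned 15.5 to 32.6 CPM (median 28.0) and APOE3 TBI animals 27.6 to 37.5 CPM (median 30.3). Among APOE4 animals Pcdhga7 lay at 28.5 to 36.9 CPM (median 31.9) in shams and at 27.2 to 48.0 CPM (median 37.1) in the TBI group. All of these ranges overlapped. Pcdhga7 had means of 29.4 ± 5.39 CPM (SD, n = 14) and 34.2 ± 5.82 CPM (SD, n = 16), a log2 difference of 0.21 ± 0.08 (SE) and an adjusted p of 0.0181, above 0.05 without APOE3 TBI replicate 6, APOE4 TBI replicate 3 or APOE4 TBI replicate 7. Pcdhga6, with 0.14 ± 0.07 (SE) and an adjusted p of 0.0518, was the 1 gene of the set that missed the threshold. Astrocyte and microglial markers were higher in the same TBI groups, and their part in the rise was not tested. Outside the clusters, Pcdh7, a delta protocadherin, fell. Pcdh7 ran from 309 to 368 CPM (median 346) in APOE3 shams and from 214 to 308 CPM (median 286) in APOE3 TBI animals. In APOE4 mice Pcdh7 spanned 294 to 349 CPM (median 338) in shams and 249 to 339.9 CPM (median 270.0) after TBI. The APOE3 groups did not overlap, and the APOE4 groups did. The log2 difference was -0.29 ± 0.05 (SE) between means of 337 ± 19.8 CPM (SD, n = 14) and 275 ± 31.6 CPM (SD, n = 16).

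**Figure D4:**
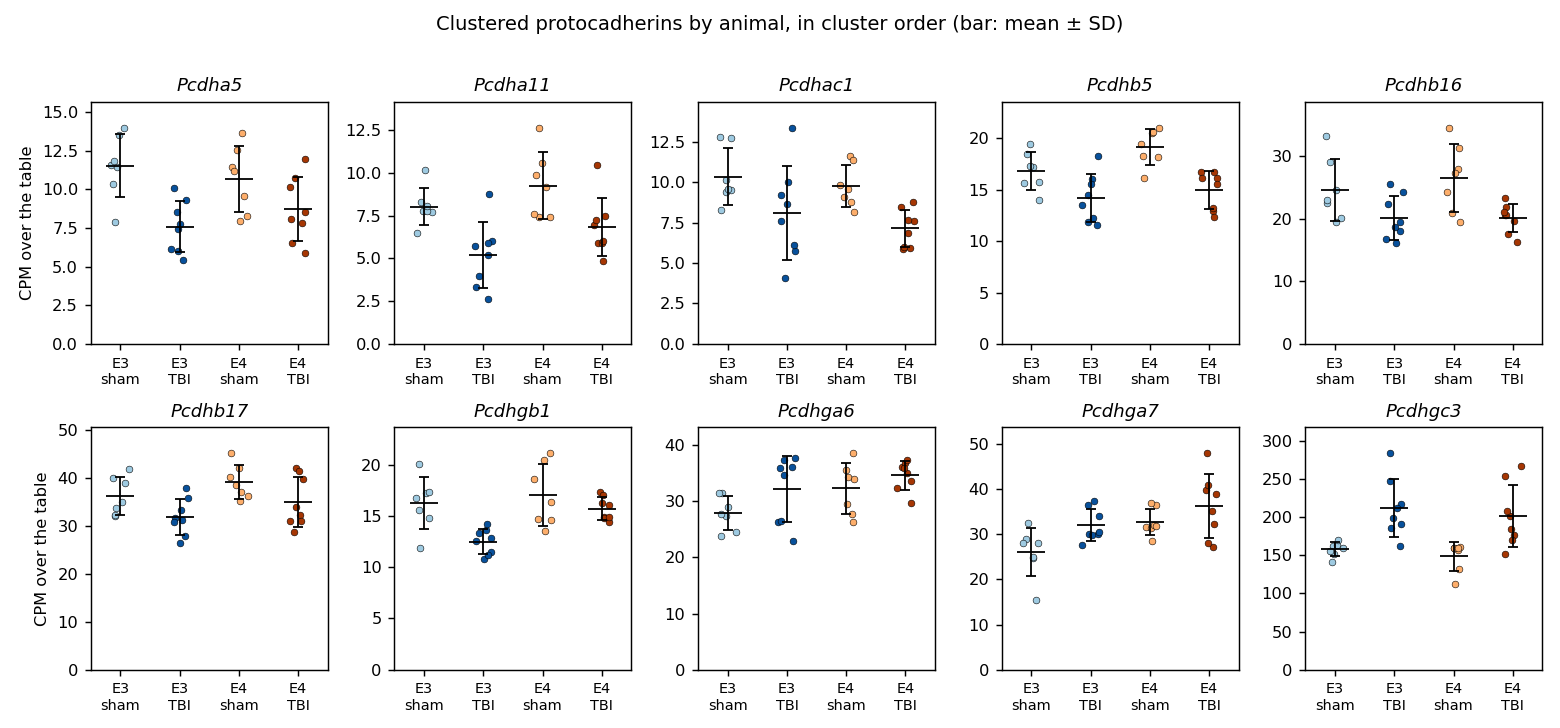
CPM in each animal for the 10 clustered protocadherins in cluster order, by genotype (E3, APOE3; E4, APOE4) and injury; points are animals and bars the mean ± SD. Means are lower after TBI in both genotypes from Pcdha5 to Pcdhgb1 and higher for Pcdhga6, Pcdhga7 and Pcdhgc3, with Pcdhga6 not called.

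Of the genes matched by spelling only, Lrrc49 had a log2 difference of -0.23, Lrrc40 of -0.15 and Lrrc42 of 0.15. Without these 3, the 40 adhesion genes gave 33 lower and 6 higher. Of the 7 genes that rose in the whole set, 4 were still called without APOE3 TBI replicate 6 and 4 without APOE4 TBI replicate 3. Over all 30 omissions of 1 library, from 34 to 35 genes were called lower. In the shallow libraries alone 29 genes were called lower and 4 higher, and in the deep libraries alone 28 and 3. The sign of the difference was the same in both classes for all 43 genes. With the 2 libraries of conflicting labels placed by their titles, 35 were called lower and 6 higher. Placed by their descriptions, 34 were called lower and 4 higher. The share of all genes called is not given for these omissions, classes and placements.

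Other genes of the same pathways, listed by their known interactions, numbered 67 after the filter, of which 48 fell and 18 rose. Over all genes tested 45.9% fell and 48.1% rose. The 67 genes had a median log2 difference of -0.18, against 0.10 over all genes tested. Values in parentheses are log2 differences of TBI minus sham. Synaptic scaffolds fell in 21 of 21 tested, among them Homer1 (-0.63), Dlgap2 (-0.38), Iqsec3 (-0.33), which sits at inhibitory synapses, and Shank1 (-0.30). Direct partners of the families fell in 11 of 13 tested and rose in 2. They include Cbln2 (-0.86), a secreted bridge between neurexins and delta glutamate receptors, the synaptic calsyntenins Clstn3 (-0.29) and Clstn1 (-0.26), and Adam23 (-0.27), a membrane protein of the ADAM family. The 2 that rose were Ptprz1 (0.26), a receptor phosphatase of glia that binds contactins, and Dag1 (0.09), the dystroglycan gene. Catenins and linkers gave 3 higher and 2 lower of 5: Vcl (0.26), Ctnna1 (0.23) and Ctnnb1 (0.08) rose, and the neuronal alpha-catenin Ctnna2 (-0.20) and Jup (-0.11) fell. Other neural adhesion molecules fell in 13 of 17 tested, such as Ephb3 (-0.49) and Fat3 (-0.48), and rose in 3, with Plxnb1 (0.37) the largest. Sheddases, proteases that cleave such molecules at the membrane, rose in 3 of 3 tested: Adam17 (0.54), Mmp14 (0.68) and Mmp3. The estimate of Mmp3, 7.53 ± 1.52 (SE), was imprecise. Secreted factors that promote synapse formation rose in 7 of 8, with Thbs1 (1.15) and Tgfb1 (0.97) among them, and Bdnf (-0.66) fell. The neuronal and glial marker shifts given above apply to these lists too.

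The effect of injury was compared between the human APOE alleles. In APOE3 mice 32 genes were called lower and 4 higher (over all genes tested, 34.3% lower and 38.0% higher). In APOE4 mice 24 were called lower and 3 higher (30.9% and 33.9% of all genes tested). Several of these counts moved by over 1.5 times with other settings. With total-count scaling they were 17 lower and 7 higher in APOE3 mice and 15 lower and 5 higher in APOE4 mice. In APOE3 mice the shallow libraries alone gave 13 lower and 1 higher and the deep ones 17 and 3, and in APOE4 mice the deep ones gave 4 lower. For these other settings the share of all genes called is not given. With TMM scaling and all 30 libraries, the sign of the difference was the same in both genotypes for all 43 genes. Selection of the rows on TBI against sham favours such agreement, and its share over all genes was not counted. By the same fit, 24 genes were called in both genotypes, 12 in APOE3 mice and not in APOE4 mice, 3 the reverse and 4 in neither. The share over all genes was not counted for this split either, and over all genes calls were also more frequent in APOE3 mice. The test of the difference itself, the interaction of injury and genotype, called 0 of 43 genes and 0.0% of the 5371 genes (edgeR). At an unadjusted p under 0.05 it held 1 of the 43 genes, against 1.84% of all genes, and both DESeq2 and limma-voom also called 0 of the 43. The SE of the interaction had a median of 0.11 and a maximum of 0.26 on the log2 scale, which sets the size of difference that could be seen. Selection on TBI against sham also keeps fewer genes that moved in opposite directions or in 1 genotype alone. The interaction counts therefore cover the listed genes only.

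The smallest interaction p was that of Lrrc40, 1 of the genes matched by spelling. For Lrrc40, APOE3 shams spanned 93.0 to 119 CPM (median 110.0) and APOE3 TBI animals 96.5 to 120.1 CPM (median 104). Among APOE4 animals Lrrc40 lay at 101 to 130.2 CPM (median 116) in shams and at 85.2 to 115 CPM (median 95.7) in the TBI group. The APOE3 groups shared their range, and the APOE4 TBI animals lay mostly below their shams. Its log2 difference was -0.01 ± 0.06 (SE) in APOE3 and -0.29 ± 0.06 (SE) in APOE4 mice. The interaction was -0.28 ± 0.08 (SE) with an unadjusted p of 0.00176 and an adjusted p of 0.999 (edgeR). Next came Lrrtm3, whose log2 difference was -0.49 ± 0.08 (SE) in APOE3 and -0.28 ± 0.08 (SE) in APOE4 mice. Its interaction was 0.21 ± 0.11 (SE) with an unadjusted p of 0.0713. Cdh8 gave -0.43 ± 0.07 (SE) and -0.24 ± 0.07 (SE), an interaction of 0.19 ± 0.11 (SE) with an unadjusted p of 0.0775.

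APOE4 and APOE3 mice were also compared directly. Titles of the APOE3 animals compared begin with D and those of the APOE4 animals with E, so genotype and this prefix cannot be told apart. Over both injury states, 0 of the 43 genes passed an adjusted p of 0.05 in edgeR, against 1.82% of all genes tested, and 13 of the 43 had an unadjusted p under 0.05, against 13.8%. In shams 0 of 43 passed (0.168% of all genes), with 3 at an unadjusted p under 0.05 against 5.77%, and DESeq2 and limma-voom also called 0. In TBI animals 0 of 43 passed (0.447% of all genes), with 9 at an unadjusted p under 0.05 against 11.2%. DESeq2 and limma-voom each called 1 of the 43 over both injury states and 1 in TBI animals, in each case Lrrtm3.

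Lrrtm3 had a fitted log2 difference, APOE4 minus APOE3, of 0.19 ± 0.06 (SE) over both injury states, with an adjusted p of 0.0634. The difference was 0.30 ± 0.08 (SE) among TBI animals (adjusted p 0.0664) and 0.09 ± 0.08 (SE) among shams (adjusted p 1.000). As the values above show, the ranges of the genotypes overlapped in both states. The adjusted p over both states was 0.0347 with DESeq2, 0.0322 with limma-voom and 0.0366 with total-count scaling, and leaving out 1 library moved it between 0.0273 and 0.131. It fell under 0.05 without APOE3 sham replicate 1, APOE3 TBI replicate 5, APOE4 sham replicate 7 or APOE4 TBI replicate 6. The call lay at the threshold.

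On the same scale Pcdhga7 differed by 0.26 ± 0.08 (SE) over both states (adjusted p 0.103) and by 0.32 ± 0.12 (SE) in shams, and Cdh13 differed by -0.13 ± 0.04 (SE) (adjusted p 0.120) and by -0.18 ± 0.06 (SE) in shams. Neither passed the threshold. Pcdhga6 in shams differed by 0.22 ± 0.10 (SE). APOE3 shams gave Pcdhga6 at 23.7 to 31.4 CPM (median 27.8) and APOE3 TBI animals at 23.0 to 37.6 CPM (median 35.3). APOE4 shams gave Pcdhga6 at 26.2 to 38.5 CPM (median 34.0) and APOE4 TBI animals at 29.7 to 37.3 CPM (median 35.4). These 4 ranges overlapped. In TBI animals Pcdhgb1 differed by 0.31 ± 0.10 (SE) (adjusted p 0.194) and Lrrc40 by -0.17 ± 0.06 (SE) (adjusted p 0.193). Pcdhgb1 ran from 11.9 to 20.1 CPM (median 16.7) in APOE3 shams and from 10.8 to 14.2 CPM (median 12.7) in APOE3 TBI animals. In APOE4 mice Pcdhgb1 spanned 13.5 to 21.1 CPM (median 16.3) in shams and 14.4 to 17.3 CPM (median 15.5) after TBI. Every injured APOE4 animal was above every injured APOE3 animal for Pcdhgb1, while the shams overlapped. The share of all genes tested that separated in this way was not counted, and Pcdhgb1 was not called.

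A larger number of these genes differed by the letter in the animals' titles. Between F and M animals, with the 4 groups held in the model, 14 of the 43 genes were lower in F animals and 2 higher (edgeR, adjusted p under 0.05 over all genes). Over all genes tested 6.7% were lower and 10% higher, so that the 14 genes are a larger share than the background and the 2 a smaller one. The median log2 difference of the 43 genes was -0.08, against 0.01 over all genes tested. Pan-neuronal markers were lower in F animals in 4 of 12 and higher in 0, and microglial markers higher in 5 of 14 and astrocyte markers in 3 of 12. Summed pan-neuronal levels were 17883 to 22691 CPM (median 19656) in M and 14442 to 21932 CPM (median 18734) in F animals. Hippocampal markers summed to 377 to 830.3 CPM (median 482) in M and 264 to 755 CPM (median 689.9) in F animals. Their median was thus higher in F animals, and of the 5 genes 1 passed the test, higher in F animals. Neocortical markers were lower in F animals in 2 of 7 and higher in 1. The part of these markers in the letter difference was not tested.

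Flrt1 ran from 54.8 to 105 CPM (median 82.4) in M animals and from 52.0 to 90.6 CPM (median 59.0) in F animals. The ranges overlapped, with the F median near the low end of the M range. The F minus M difference of Flrt1 was -0.37 ± 0.05 (SE) with an adjusted p of 0.000196, the smallest of the set, and was -0.46 in the shallow and -0.32 in the deep libraries. Cntnap3 ran from 23.0 to 44.9 CPM (median 30.7) in M animals and from 21.1 to 34.4 CPM (median 24.8) in F animals. Its difference of -0.32 ± 0.08 (SE) was larger in size than its rise after injury. Type II cadherins followed with Cdh18 (-0.27 ± 0.08 SE) and Cdh12 (-0.25 ± 0.08 SE). Cdh18 ran from 35.2 to 57.5 CPM (median 44.2) in M animals and from 23.3 to 50.3 CPM (median 35.2) in F animals. Cdh12 ran from 36.3 to 58.0 CPM (median 48.9) in M animals and from 25.7 to 52.9 CPM (median 41.2) in F animals. For both cadherins the ranges overlapped and the F median lay lower.

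Among postsynaptic ligands, Lrfn1 (-0.25 ± 0.07 SE), Lrrtm3 (-0.23 ± 0.06 SE), Lrrc4c (-0.16 ± 0.05 SE), Lrfn5 (-0.14 ± 0.05 SE), Lrrc4 (-0.12 ± 0.04 SE) and Nlgn2 (-0.11 ± 0.03 SE) were lower in F animals. Lrfn1 ran from 67.1 to 125 CPM (median 89.97) in M animals and from 62.0 to 97.02 CPM (median 73.9) in F animals. Lrrtm3 ran from 92.0 to 165 CPM (median 126) in M animals and from 75.8 to 143 CPM (median 110.2) in F animals. Each of these pairs of ranges overlapped. Lrrc4c ran from 239 to 346 CPM (median 302) in M animals and from 206 to 345 CPM (median 249) in F animals. Lrfn5 ran from 102 to 138 CPM (median 123) in M animals and from 85.1 to 143 CPM (median 109.6) in F animals. The F medians were again the lower ones. Lrrc4 ran from 244 to 290.4 CPM (median 259.8) in M animals and from 196 to 292 CPM (median 252) in F animals. Nlgn2 ran from 538 to 653 CPM (median 584) in M animals and from 489.5 to 601 CPM (median 541) in F animals. The M ranges of Lrrc4 and Nlgn2 started above the lowest F animals. Nlgn2, with an adjusted p of 0.00924, differed between the letters by about as much as between sham and TBI.

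Pcdhb17 (-0.22 ± 0.05 SE), Cntn3 (-0.20 ± 0.07 SE), Cadm2 (-0.16 ± 0.05 SE) and Lrrc40 (-0.13 ± 0.04 SE) made up the rest of the lower genes. Pcdhb17 ran from 31.6 to 45.1 CPM (median 39.8) in M animals and from 26.4 to 38.9 CPM (median 32.2) in F animals. Cntn3 ran from 61.4 to 99.7 CPM (median 71.7) in M animals and from 50.8 to 89.9 CPM (median 65.5) in F animals. The ranges of both overlapped. Cadm2 ran from 495 to 769.9 CPM (median 660.0) in M animals and from 496 to 690.0 CPM (median 536) in F animals. Lrrc40 ran from 85.2 to 130.2 CPM (median 115) in M animals and from 86.2 to 125 CPM (median 101) in F animals. Cadm2 and Lrrc40 overlapped as widely. The 2 genes higher in F animals were Cdh24 and Pcdhgc3. Cdh24 ran from 7.64 to 16 CPM (median 12.1) in M animals and from 8.34 to 21.9 CPM (median 15.9) in F animals, a difference of 0.42 ± 0.10 (SE) with an adjusted p of 0.00645. Pcdhgc3 ran from 112 to 202 CPM (median 162) in M animals and from 152 to 283 CPM (median 184) in F animals, a difference of 0.25 ± 0.06 (SE) with an adjusted p of 0.00723. For both genes the highest F animals exceeded every M animal.

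All 16 genes had the same direction in the shallow and in the deep libraries. Tested apart, with fewer animals, the shallow libraries alone called 4 genes lower and 0 higher, and the deep libraries alone called 0. The share of all genes called is not given for the 2 classes. The calls of Cntn3, Lrrc4c, Lrfn5 and Lrrc40 lay near the threshold: their adjusted p exceeded 0.05 when any 1 of 14, 8, 5 and 1 libraries was left out, with highest values of 0.0740, 0.0598, 0.0581 and 0.0520. For Cntn3 these were APOE3 TBI replicates 1, 2, 6 or 7, APOE3 sham replicates 2 or 6, APOE4 TBI replicates 1, 3, 4, 6 or 7, APOE4 sham replicates 1, 5 or 7. For Lrrc4c they were APOE3 TBI replicates 2, 3 or 8, APOE4 TBI replicates 3, 4, 6 or 7, APOE4 sham replicate 7, for Lrfn5 APOE3 TBI replicate 8, APOE4 TBI replicates 4, 6 or 7, APOE4 sham replicate 7, and for Lrrc40 APOE4 TBI replicate 4. Over all omissions of 1 library the lower calls numbered 10 to 16 and the higher calls 2 to 3.

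**Figure D5:**
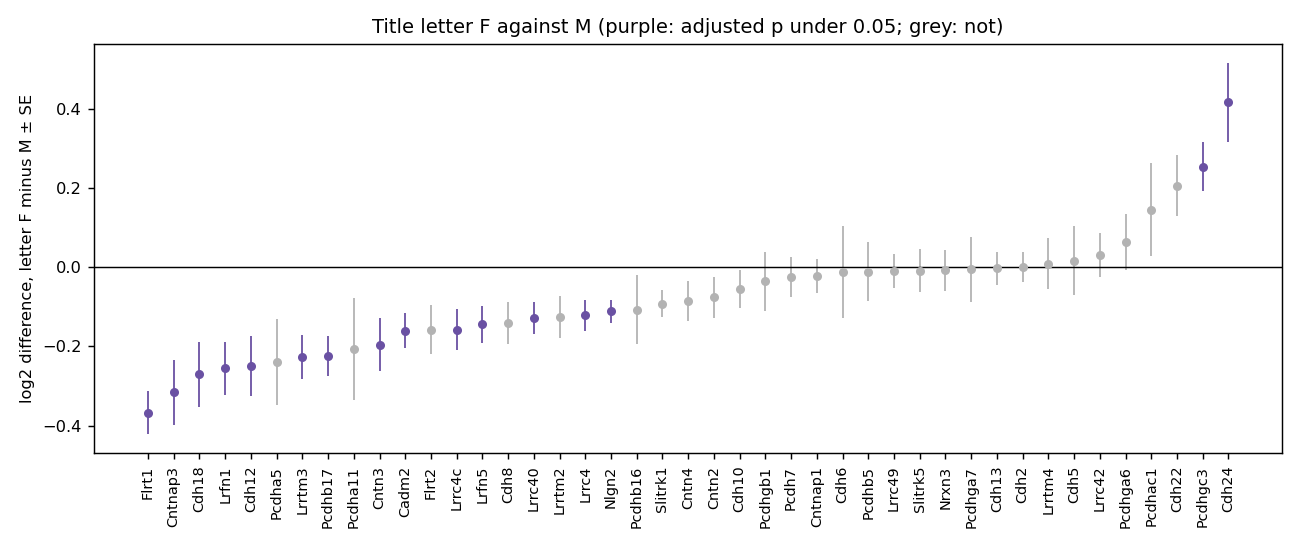
Log2 difference between animals titled F and M for each of the 43 genes, in order of size; points are estimates of the edgeR fit over 15 F and 15 M animals, bars their SE, and purple marks an adjusted p under 0.05. The 14 purple points below 0 run from Flrt1 (-0.37) to Nlgn2 (-0.11), and the 2 above 0 are Pcdhgc3 (0.25) and Cdh24 (0.42).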

How the data were processed

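Messenger RNA of cortex and hippocampus from 32 mice was measured by bulk RNA sequencing. Per the submitters' processing notes, build mm10, Subread 1.5.0 and edgeR 3.14.0 were used; annotation and strand setting are not given in the sources used here. What the authors deposited is a table of unnormalised counts per gene with their own log2 coefficient and p-value for TBI against sham, per the file headers. It lists 5582 genes chosen on that contrast, so totals over it are not library depths. Symbols of 13 genes that had turned into dates were restored from gene identifiers.

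Counts of 30 libraries were fitted with edgeR 4.0.16 (R 4.3.3; TMM, filterByExpr, quasi-likelihood F test) with 1 coefficient per genotype and injury group and the title letter as covariate, on all 5371 genes that passed the filter, and p-values were adjusted by Benjamini-Hochberg over all of them at a threshold of 0.05. The 2 libraries whose title and description disagree were left out. Replicates are separate animals by their numbers. The script was tested on simulated data. Log2 differences are those of the fit, with SE. Level per kilobase divides CPM by the exon length of GENCODE M21 (GRCm38). Alternatives were DESeq2 1.42.0, its size factors in edgeR, total-count scaling, limma-voom (limma 3.58.1), no filter, no letter, library class as covariate, each class alone, the conflicting libraries placed by either label, an additive model and leaving out each library.

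The gene set, the pathway and marker lists and the tests were chosen with earlier results of these data known. Genes given in full were the highest per kilobase of each family, the 5 largest rises and 10 largest falls with injury, and those past the threshold, or the 3 with the smallest p, in the other comparisons; Slitrk1 is given by injury state alone. Of pathway and marker lists, the genes named were taken from the 6 with the largest change in each direction.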

Additional observations from a re-analysis of the deposited data

Results flagged for a closer look

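In 14 of 172 sets of 7 or 8 values (43 genes in 4 groups) the highest or lowest animal stood apart from the rest of its group by Dixon's test; chance flags about 1 in 20 sets. In APOE3 TBI replicate 8, an F animal, Cdh5 was highest at 49.5 CPM against 30.02 CPM in the nearest animal, Cdh8 lowest at 74.5 CPM against 100.3 CPM in the nearest animal, and Lrrtm4 lowest at 48.2 CPM against 65.1 CPM in the nearest animal. Among the other APOE3 TBI animals, Cadm2 was highest in replicate 3 at 649 CPM against 548 CPM in the nearest animal and Cdh24 in replicate 6 at 20.6 CPM against 13.4 CPM in the nearest animal. In APOE4 TBI animals the high values were Cdh5 in replicate 3 at 40.5 CPM against 31.98 CPM in the nearest animal, Lrfn1 in replicate 2 at 125 CPM against 88.9 CPM in the nearest animal, Lrrc40 in replicate 4 at 115 CPM against 98.9 CPM in the nearest animal and Pcdha11 in replicate 1 at 10.5 CPM against 7.47 CPM in the nearest animal. Among shams, Cdh2 was lowest in APOE3 replicate 6 at 212 CPM against 242 CPM in the nearest animal. In APOE4 shams Cadm2 was highest in replicate 1 at 752 CPM against 694 CPM in the nearest animal and Lrrc4 lowest in replicate 2 at 245 CPM against 278 CPM in the nearest animal. In replicate 4 of that group Nrxn3 was lowest at 411 CPM against 467 CPM in the nearest animal and Pcdh7 lowest at 294 CPM against 328 CPM in the nearest animal.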

How the results depend on the processing

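The 35 lower injury calls over both genotypes became 24 with total-count scaling, 29 with shallow and 28 with deep libraries, and were 34 or 35 under the other settings. Leaving out 1 library gave 34 to 35 lower and 4 to 8 higher calls over both genotypes, 27 to 33 lower and 3 to 5 higher in APOE3 mice, and 22 to 28 lower and 2 to 4 higher in APOE4 mice. It gave 10 to 16 lower and 2 to 3 higher for the letter, 0 to 1 higher for genotype over both states and 0 to 2 in TBI animals, 2 only without APOE4 TBI replicate 7. The 7 higher injury calls became 4 with shallow libraries, 3 with deep libraries and 4 with the conflicting libraries placed by description. In APOE3 mice the 4 higher calls became 7 with total-count scaling, 1 with shallow libraries and 2 with the description, and the 32 lower calls 17, 13 (shallow) and 17 (deep). In APOE4 mice total-count scaling gave 5 higher and 15 lower calls, and deep libraries 4 lower. For genotype, total-count scaling, library class as covariate, placement by description, limma-voom and DESeq2 each gave 1 higher call, over both states and in TBI. For the letter, shallow libraries gave 0 higher and 4 lower, deep libraries 0 and 0, and placement by description 1 higher. Fewer animals enter each library class, and for the rest the cause was not tested. The share of all genes called is given for the main fit only. For injury over both genotypes, the split of all calls is also given with total-count scaling.

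Differences that changed sign were those of genes not called: Lrrc40 in APOE3 mice (0.078 with total-count scaling, 0.029 in deep libraries, -0.057 to 0.0043 without 1 library, being 0.0043 without APOE3 TBI replicate 2 and 0.000369 without APOE3 sham replicate 4), Lrrtm4 in APOE3 mice (0.10, shallow), and in APOE4 mice Cdh10 (0.014, deep), Lrfn1 (0.040, shallow), Pcdhgb1 (0.046, shallow) and Pcdhga6 (-0.024, placement by description). No paired analysis was possible because the titles give animal numbers and no replicate numbers shared between groups. Interaction and sham genotype counts stayed at 0 under each alternative run. Mean counts of 34.6 to 45.8 per library limit the alpha protocadherins.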

Other observations

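The 2 libraries whose labels conflict belong to no group here. The library titled APOE4 sham and described as TBI was an F animal. In it, 32 of the 43 genes were below and 3 above the range of all 14 shams. Its median log2 level of the 43 genes relative to the sham mean was -0.75. In the library titled APOE3 sham and described as APOE4 sham, an M animal, 1 gene was below and 2 above that range, and the median was 0.03. Both medians were scaled over 32 libraries and set against the log of the sham mean. The -0.39 of the lowest TBI animal was scaled over 30 libraries and set against the mean of the sham logs, a different measure. Each sham set against the other 13 had 0 to 13 genes outside their range, with a median of 6.5.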
